A study of Mus musculus with 14 samples.

Results

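The Cyp4a genes of mouse liver were followed in wild-type mice, in Mdr2-KO mice and in Mdr2-KO/IL6-KO mice. The members are Cyp4a10, Cyp4a12a, Cyp4a12b, Cyp4a14 and Cyp4a31, which are 5 of the 19938 genes that could be tested on these arrays. They were listed by symbol, and each was to be read from its single-gene probe of highest mean signal. Each member has exactly 1 such probe (NCBI gene 13117 for Cyp4a10, 277753 for Cyp4a12a, 13118 for Cyp4a12b, 13119 for Cyp4a14 and 666168 for Cyp4a31), so the mean decided nothing. The genes themselves were chosen by readers of earlier results on these same arrays. The adjusted p-values below therefore set the size of a difference against the spread between arrays and are not independent evidence that these genes differ.

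CYP4A enzymes are cytochromes P450 of the endoplasmic reticulum that add a hydroxyl group to the last (omega) carbon of fatty acids such as lauric and arachidonic acid. Alcohol and aldehyde dehydrogenases then turn the omega-hydroxy acid into a dicarboxylic acid, which peroxisomes shorten. In mouse liver, Cyp4a10 and Cyp4a14 are classical target genes of the fatty acid receptor PPAR-alpha. Cyp4a12a, which makes the vasoactive lipid 20-HETE from arachidonic acid, is known for higher expression in males than in females, as is its near-identical neighbour Cyp4a12b.

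RNA came from tumour-free liver of female mice aged 14 months. The 3 wild-type arrays are of C57BL/6 mice, the 5 Mdr2-KO arrays of mice without Mdr2, and the 6 Mdr2-KO/IL6-KO arrays of mice without both Mdr2 and IL-6. The labels name no treatment. Mdr2 is the older name of Abcb4, which moves phosphatidylcholine into bile, and mice that lack it develop long-lasting bile duct inflammation and, with age, liver tumours. IL-6 (Il6) is the cytokine that drives the hepatic acute phase response. The labels give no strain for either knockout and no detail of the targeted alleles, so strain background and loss of the genes cannot be told apart. They name neither a scan date nor a batch, and they do not say whether each array is a separate mouse, so all p-values reflect only how these arrays vary.

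Values are log2 signals, so 1 unit is a doubling. Means are given with SD over n = 3 wild-type, n = 5 Mdr2-KO and n = 6 Mdr2-KO/IL6-KO arrays. Differences come from 1 limma fit of the 3 groups over all genes, with standard error (SE), 2-sided p-values and Benjamini-Hochberg adjustment over all 19938 genes at 0.05. The median signal of an array lay between 6.15 and 6.24, and a level of 5.49, under which 95% of 1015 olfactory receptor genes lie, served as background. The wild-type arrays read 10.36 ± 0.03 for Abcb4, the Mdr2-KO arrays 9.01 ± 0.19 and the Mdr2-KO/IL6-KO arrays 9.05 ± 0.20. Il6 lay under the background in all 14 arrays, so its loss could not be read. The labelled sex was checked as well: Xist, transcribed from the inactive X of females, lay between 11.69 and 11.92 in the 14 arrays, and the Y-linked genes Eif2s3y, Kdm5d and Uty were under the background in each of them. The 10 hepatocyte markers averaged 12.61 to 12.67 per array in wild type, 12.64 to 12.77 in Mdr2-KO and 12.57 to 12.76 in Mdr2-KO/IL6-KO.

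The 5 members did not move in one direction. Cyp4a12a and Cyp4a12b, under the background in wild type, were at least 4.01-fold and 4.18-fold higher in Mdr2-KO. Cyp4a31 fell 2.73-fold and Cyp4a10 fell 2.12-fold in Mdr2-KO, while Cyp4a14 did not pass. In Mdr2-KO/IL6-KO only the rises of the Cyp4a12 pair passed, and no member passed between the knockouts. Against wild type, 2 of 5 members were higher in Mdr2-KO, where 8.89% of all genes tested were higher, and 2 of 5 were lower, where 12.1% of all genes were lower. In Mdr2-KO/IL6-KO 2 of 5 were higher, against 6.96% of all genes, and 0 were lower, against 5.33% of all genes. The 2 higher genes are the near-identical Cyp4a12 pair, and the 2 lower ones, Cyp4a10 and Cyp4a31, can also share probe signal. Each count of 2 may therefore rest on 1 shared signal. The median difference of the members was -1.02 for Mdr2-KO and -0.32 for Mdr2-KO/IL6-KO, beside -0.07 and -0.02 over all genes. Both comparisons use the same 3 wild-type arrays and are not separate evidence.

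**Figure D1:**
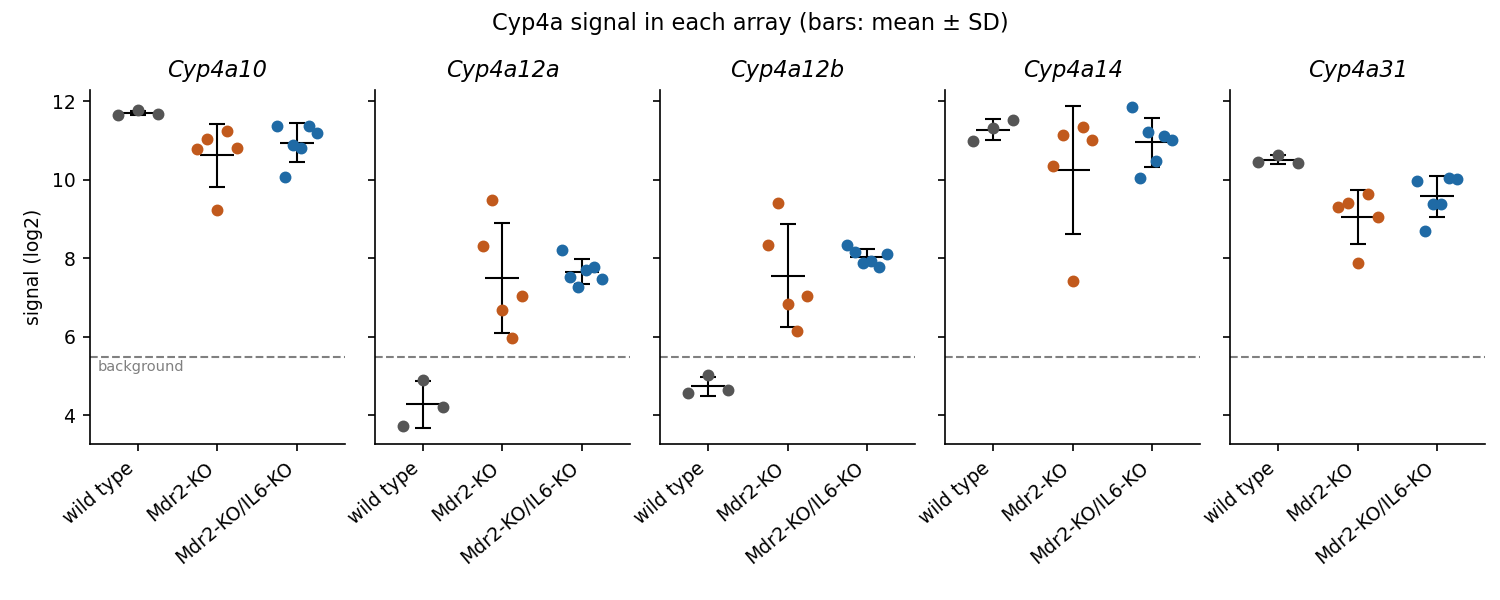
Log2 signal of each Cyp4a gene in every array, by group, with 1 point per array and bars for the mean ± SD; the dashed line is the background of 5.49. All wild-type points of Cyp4a12a and Cyp4a12b lie under the line and all knockout points above it, whereas Cyp4a10, Cyp4a14 and Cyp4a31 lie above it in all 14 arrays, with a low point at 7.42 for Cyp4a14 in Mdr2-KO.

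Cyp4a12a, the male-predominant arachidonic acid hydroxylase, read 3.72, 4.91 and 4.20 in the wild-type arrays. In the Mdr2-KO arrays it read 8.30, 9.48, 6.69, 5.97 and 7.03. In the Mdr2-KO/IL6-KO arrays its lowest value was 7.26, its median 7.62 and its highest 8.21. Every knockout array of either genotype thus lay above the background and above every wild-type array. The spread was wide in Mdr2-KO (SD 1.40), where arrays 1 and 2 were high and array 4 low, and narrow in Mdr2-KO/IL6-KO (SD 0.33). This difference in spread was not tested. The fitted rise was 3.22 (SE 0.56, limma adjusted p = 0.00143) in Mdr2-KO and 3.38 (SE 0.54, adjusted p = 0.000905) in Mdr2-KO/IL6-KO. Because the wild-type signal is under the background, these sizes are not exact, and the rises are stated as at least 4.01-fold and at least 4.50-fold. These bounds set the mean of the knockout arrays against the background level in place of each dim array.

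Cyp4a12b, the neighbouring gene copy, gave nearly the same picture. It read 4.56, 5.02 and 4.66 in wild type. In Mdr2-KO it read 8.33, 9.42, 6.83, 6.15 and 7.05, so the same arrays were high and low as for Cyp4a12a. In Mdr2-KO/IL6-KO it ranged from 7.78 over a median of 8.03 to 8.33, again with no overlap with wild type. The rise was 2.81 in Mdr2-KO (SE 0.50, limma adjusted p = 0.00163), at least 4.18-fold. It was 3.29 in Mdr2-KO/IL6-KO (SE 0.48, limma adjusted p = 0.000471), at least 5.83-fold. Over the 14 arrays the signals of the pair correlated at r = 0.985, and at 0.961 after each group's mean was removed. Among the 6 Mdr2-KO/IL6-KO arrays alone r was 0.463 (rho = 0.257, exact permutation p = 0.356 for r and 0.658 for rho). Without the 2 of these arrays farthest from the median of Cyp4a12a, r was -0.959. Near-identical transcripts can reach the same probe, and how much signal the 2 probes share could not be measured. The pair is therefore not taken as 2 separate readings. The calls of both genes stayed under all 23 alternative settings, with adjusted p between 5.6e-07 and 0.0109 over both comparisons.

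Cyp4a10, the PPAR-alpha responsive lauric acid hydroxylase, read 11.66, 11.77 and 11.67 in wild type. In Mdr2-KO it read 10.79, 11.04, 9.22, 11.23 and 10.81. In Mdr2-KO/IL6-KO its lowest value was 10.06, its median 11.04 and its highest 11.37. All 11 knockout arrays lay under the lowest wild-type array, and the knockout groups overlapped each other. Cyp4a10 fell by 1.08 in Mdr2-KO (SE 0.36, limma adjusted p = 0.0466). The difference in Mdr2-KO/IL6-KO was -0.76 (SE 0.35, adjusted p = 0.192, 95% interval -1.51 to -0.0048), which did not pass. The Mdr2-KO call stands close to the threshold. It was lost when wild-type array 1 (adjusted p = 0.0963), 2 (0.0889) or 3 (0.123) was left out, without Mdr2-KO array 1 (0.0652) or 5 (0.0562), and without Mdr2-KO/IL6-KO array 3 (0.0567), 4 (0.0571), 5 (0.0503) or 6 (0.0532). Without Mdr2-KO array 3, the lowest of its group, the difference was -0.73 in Mdr2-KO (adjusted p = 0.0455), and the difference in Mdr2-KO/IL6-KO then passed (adjusted p = 0.0352).

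Cyp4a31, a close relative of Cyp4a10 in sequence, read 10.45, 10.64 and 10.44 in wild type. In Mdr2-KO it read 9.32, 9.40, 7.88, 9.64 and 9.05. In Mdr2-KO/IL6-KO it ranged from 8.70 over a median of 9.67 to 10.04. No knockout array reached the lowest wild-type array. Cyp4a31 fell by 1.45 in Mdr2-KO (SE 0.34, limma adjusted p = 0.00883), and this call stayed under all 23 alternatives (adjusted p between 0.000845 and 0.032). The difference in Mdr2-KO/IL6-KO, -0.93 (SE 0.33, limma adjusted p = 0.0814), did not pass. It passed without Mdr2-KO array 3 (adjusted p = 0.0178), an array that enters this comparison only through the shared estimate of spread. A further probe is annotated to Cyp4a10, Cyp4a31 and Cyp4a32 together and cannot be given to 1 gene. It read 11.62, 11.82 and 11.74 in wild type, 10.75, 11.06, 9.21, 11.14 and 10.79 in Mdr2-KO, and 10.10 to 11.50 in Mdr2-KO/IL6-KO. Its difference in Mdr2-KO was -1.14 (SE 0.39, adjusted p = 0.0565 over all 35557 probes), so this probe did not pass. Cyp4a10 and Cyp4a31 correlated at r = 0.972 over the 14 arrays, and they too can share probe signal.

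Cyp4a14, the other strongly PPAR-alpha responsive member, read 10.99, 11.30 and 11.52 in wild type. In Mdr2-KO it read 10.35, 11.13, 7.42, 11.35 and 11.00. In Mdr2-KO/IL6-KO its lowest value was 10.05, its median 11.06 and its highest 11.84. Knockout and wild-type arrays overlapped, and a single array, Mdr2-KO array 3, stood far below all others. The difference was -1.02 in Mdr2-KO (SE 0.66, limma adjusted p = 0.269, 95% interval -2.43 to 0.38) and -0.32 in Mdr2-KO/IL6-KO (SE 0.64, limma adjusted p = 0.818). Without Mdr2-KO array 3 the first of these was -0.31.

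Setting the Mdr2-KO/IL6-KO arrays against the Mdr2-KO arrays asks what loss of IL-6 adds. None of the 5 members passed, where 5.04% of all genes were higher and 3.72% lower. The adjusted p-values of the limma fit ran from 0.233 to 0.834, and 0 members had an unadjusted p under 0.05. The differences (Mdr2-KO/IL6-KO minus Mdr2-KO) with their 95% intervals were 0.33 (-0.32 to 0.97) for Cyp4a10, 0.52 (-0.08 to 1.12) for Cyp4a31 and 0.70 (-0.47 to 1.87) for Cyp4a14. For the male-predominant pair they were 0.16 (-0.82 to 1.15) for Cyp4a12a and 0.48 (-0.40 to 1.36) for Cyp4a12b. The interval includes a doubling for 4 of the 5 genes, all but Cyp4a10. Without Mdr2-KO array 3 the differences of Cyp4a10, Cyp4a12a and Cyp4a14 turned to -0.024, -0.04 and -0.0072, and without Mdr2-KO array 4 that of Cyp4a12a turned to -0.22. By mean signal, Cyp4a10, Cyp4a14 and Cyp4a31 were each highest in wild type, then in Mdr2-KO/IL6-KO, then in Mdr2-KO, but neither Mdr2-KO/IL6-KO step passed for any of these genes. The Cyp4a12 pair was lowest in wild type, and the knockouts did not differ beyond their spread.

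**Figure D2:**
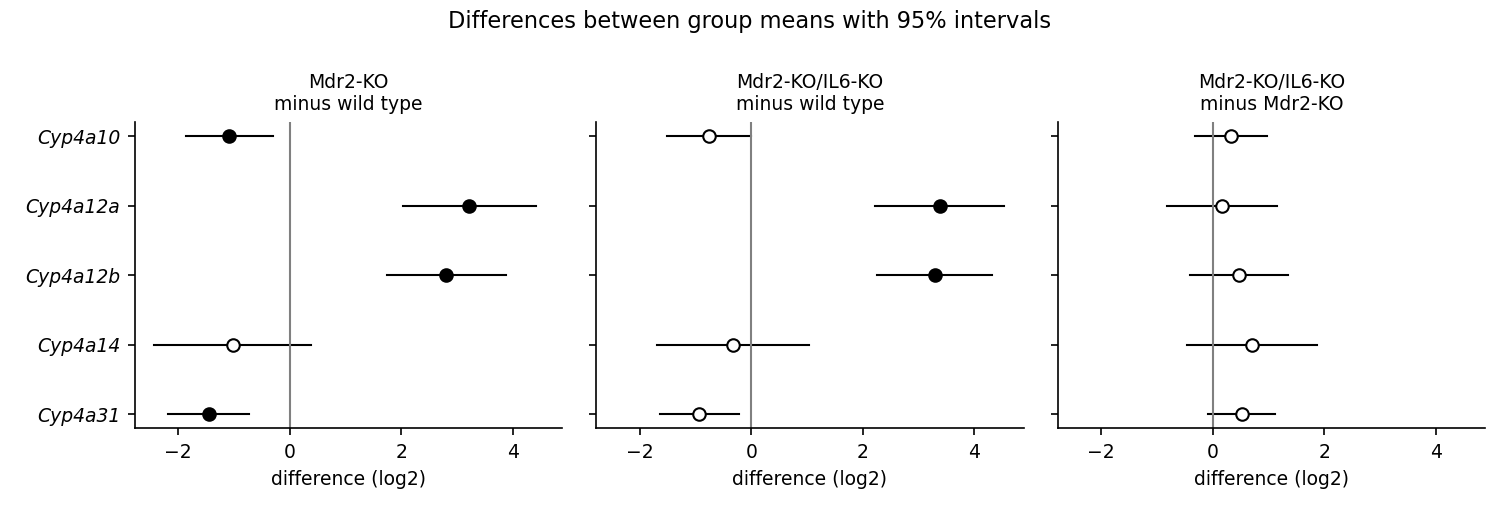
Differences between group means in log2 units with 95% intervals for each Cyp4a gene in the 3 comparisons; filled points passed an adjusted p of 0.05 and open points did not. The Cyp4a12 pair stands at 2.81 to 3.38 against wild type, Cyp4a31 and Cyp4a10 at -1.45 and -1.08 in Mdr2-KO, and all points of the knockout comparison are open.

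Within the knockout groups, Cyp4a10, Cyp4a14 and Cyp4a31 were low in the same arrays. Mdr2-KO array 3 was the lowest of its group for all 3 genes (9.22, 7.42 and 7.88), and Mdr2-KO/IL6-KO array 2 the lowest of its group (10.06, 10.05 and 8.70). Cyp4a12a was not lowest in either array. Among the 6 Mdr2-KO/IL6-KO arrays Cyp4a10 and Cyp4a31 correlated at r = 0.980 (rho = 0.771, exact permutation p = 0.0222 for r and 0.103 for rho, adjusted 0.194 and 0.514 over the 10 pairs of members, 2-sided). Without the 2 arrays farthest from the median r was 0.969. Cyp4a10 and Cyp4a14 correlated at r = 0.848 (rho = 0.829, exact permutation p = 0.0389 and 0.0583, adjusted 0.194 and 0.514), a relation that rested on those 2 arrays, since r was 0.491 without them. None of the 10 pairs passed after adjustment.

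The genes most like each member were those of highest Pearson r over the 14 arrays among genes with a mean above the background, given as a description, since the arrays share their groups. For Cyp4a10 they were Cyp4a31, Aldh3a2 (0.934), F8 (0.924), Acot2 (0.917) and Tmem47 (0.893). For Cyp4a14 they were Aldh3a2 (0.934), Mme (0.914), Lrat (0.898), Cyp4a10 (0.892) and Acot2 (0.866). For Cyp4a31 they were Cyp4a10, Acot12 (0.934), F8 (0.930), Acot2 (0.929) and Lgals4 (0.902). Aldh3a2, the fatty aldehyde dehydrogenase, acts downstream of omega-hydroxylation, and Acot2 is a mitochondrial acyl-CoA thioesterase. With each group's mean removed, r of Cyp4a10 was 0.927 with Aldh3a2 and 0.933 with Acot2, so these likenesses also lie within groups. For the Cyp4a12 pair the leading genes besides each other were F2r (0.921 with Cyp4a12a), the lysosomal sulfatase Arsa (0.911), Zfp532 (0.897) and the ceramide desaturase Degs1 (0.896), and Dmxl2 (0.901 with Cyp4a12b). These fell to between 0.594 and 0.698 with group means removed.

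The low arrays were also low for these fatty acid genes. Aldh3a2 read 11.24, 11.04 and 11.26 in wild type, 10.79, 10.80, 9.85, 11.05 and 10.93 in Mdr2-KO and 10.37 to 11.29 in Mdr2-KO/IL6-KO, with the low value in array 2. Acot2 read 7.35 in Mdr2-KO array 3 and between 8.53 and 8.96 in the other Mdr2-KO arrays. S100a8 and Elane were picked after the values were seen, among the genes whose signals ran most opposite to those of Cyp4a10 and Cyp4a14, so that they are high where these are low follows from the choice. S100a8, a calcium-binding protein of neutrophils, read 10.12 in Mdr2-KO array 3 and 8.99 in Mdr2-KO/IL6-KO array 2, and between 5.20 and 6.71 in the other 12 arrays. Elane, neutrophil elastase, read 9.21 and 7.11 in these arrays and between 5.62 and 6.22 in the others. The part of neutrophils in the Cyp4a values was not tested. In bulk tissue, fewer hepatocytes and less RNA per hepatocyte cannot be told apart. The hepatocyte markers averaged 12.72 and 12.76 in these arrays, as high as in the others. These markers lie near the top of the signal scale, and the arrays were normalized to each other. Their mean therefore cannot measure hepatocyte content, which was not tested.

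**Figure D3:**
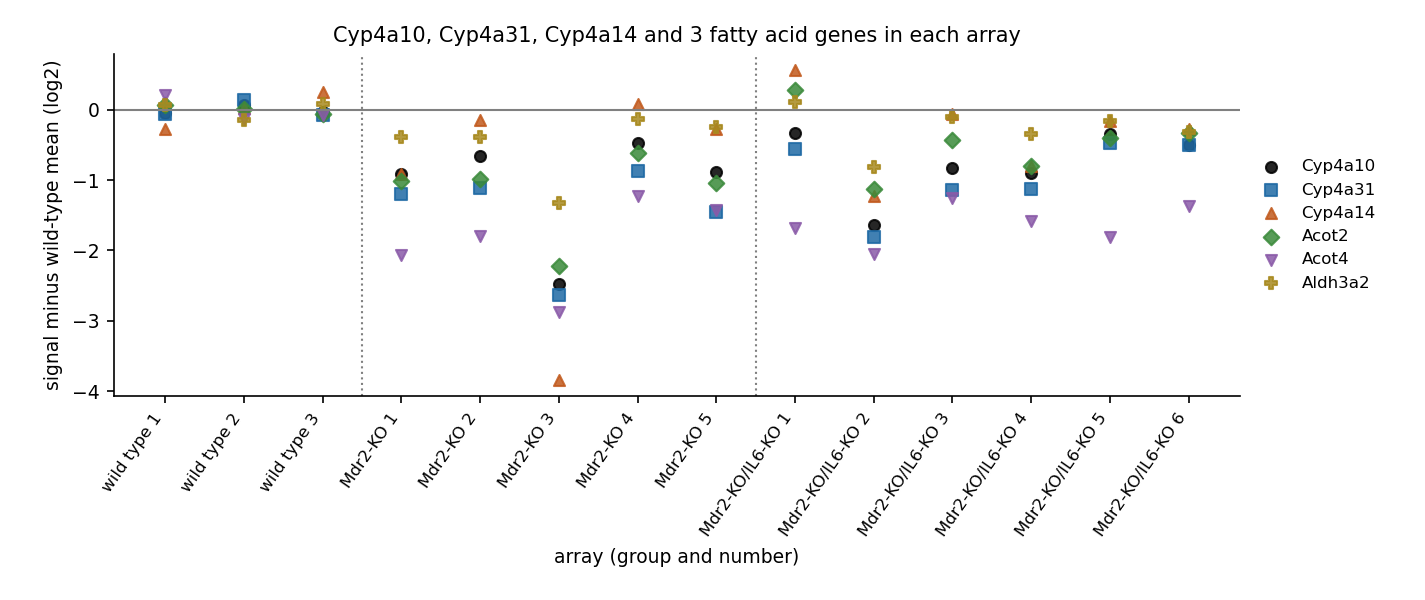
Log2 signal minus the wild-type mean for Cyp4a10, Cyp4a31, Cyp4a14, Acot2, Acot4 and Aldh3a2 in each of the 14 arrays, grouped by genotype. Mdr2-KO array 3 is the lowest of its group for all 6 genes, and Mdr2-KO/IL6-KO array 2 the lowest of its group.

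Ppara, the gene of the receptor PPAR-alpha, was lower in both knockouts. Ppara read 10.88, 10.69 and 10.80 in wild type, 9.92, 9.93, 9.99, 9.90 and 10.11 in Mdr2-KO, and 9.75 to 10.12 in Mdr2-KO/IL6-KO. No knockout array reached the wild-type arrays, and Mdr2-KO array 3 did not stand apart. Ppara fell by 0.82 in Mdr2-KO (SE 0.08, limma adjusted p = 2.5e-05) and by 0.79 in Mdr2-KO/IL6-KO (SE 0.08, limma adjusted p = 2.98e-05). The part of Ppara in the Cyp4a differences was not tested. Of the 6 measured genes for PPAR-alpha and its partners, 1 fell in Mdr2-KO, against 12.1% of all genes. In Mdr2-KO/IL6-KO 2 fell, against 5.33% of all genes. From this list 0 rose in either comparison, where 8.89% and 6.96% of all genes were higher. The list medians were -0.21 and -0.24, against -0.07 and -0.02 over all genes. Besides Ppara only Creb3l3, a hepatic transcription factor that acts with it, passed: it fell by 0.28 in Mdr2-KO/IL6-KO (adjusted p = 0.0483). That call ended under 18 of 23 alternatives, among them the removal of any 1 wild-type array, any 1 Mdr2-KO array or Mdr2-KO/IL6-KO array 2, 3, 4, 5 or 6 (the count of genes that fell was then 1). In Mdr2-KO 2 genes of the list fell without wild-type array 1, Mdr2-KO arrays 1 or 3 or Mdr2-KO/IL6-KO array 6.

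Of 28 measured PPAR-alpha target genes other than Cyp4a, 7 fell, 1 rose and 20 did not pass in Mdr2-KO, where 12.1% of all genes were lower and 8.89% higher. Their median was -0.31, against -0.07 over all genes. In Mdr2-KO/IL6-KO 5 fell, against 5.33% of all genes, and 0 rose, with a median of -0.30 against -0.02. The acyl-CoA thioesterases led. Acot3 fell by 2.91 in Mdr2-KO (SE 0.44, limma adjusted p = 0.000501) and fell by 2.45 in Mdr2-KO/IL6-KO (SE 0.43, limma adjusted p = 0.0016), with 1 Mdr2-KO array under the background. Acot4, which acts on dicarboxylic acyl-CoAs, read 10.66, 10.31 and 10.37 in wild type, 8.38, 8.65, 7.56, 9.23 and 9.02 in Mdr2-KO, and 8.40 to 9.20 in Mdr2-KO/IL6-KO. It fell by 1.88 (SE 0.28, adjusted p = 0.000431) and 1.62 (SE 0.27, adjusted p = 0.00111). Acot2 fell by 1.17 in Mdr2-KO (adjusted p = 0.0144), while its difference in Mdr2-KO/IL6-KO did not pass. The rise was that of Acadvl, a beta-oxidation dehydrogenase (0.43, adjusted p = 0.03), a call lost when wild-type array 2 (adjusted p = 0.101), wild-type array 3 (0.11) or Mdr2-KO array 4 (0.0623) was left out. The list counts depended on single arrays. In Mdr2-KO 4 fell without wild-type array 3 and 13 without Mdr2-KO/IL6-KO array 1. In Mdr2-KO/IL6-KO 3 fell without wild-type array 1 or 3, and 12 without Mdr2-KO/IL6-KO array 1. With Mdr2-KO array 3 left out together with Mdr2-KO/IL6-KO array 2 the counts were 7 and 6. Between the knockouts 1 target gene was higher in Mdr2-KO/IL6-KO and 1 lower, where 5.04% and 3.72% of all genes were, with a median of 0.02 against 0.06. The higher one was Acadm, the medium-chain dehydrogenase of beta-oxidation, at 11.24 ± 0.10 against 10.84 ± 0.16 in Mdr2-KO and 11.33 ± 0.05 in wild type. Its difference between the knockouts was 0.40 (SE 0.07, limma adjusted p = 0.00472). The lower one was Acadvl (-0.39, SE 0.11, adjusted p = 0.0382). That call ended when any 1 of Mdr2-KO arrays 1, 3, 4 and 5 and of Mdr2-KO/IL6-KO arrays 2, 4, 5 and 6 was left out (adjusted p between 0.0508 and 0.0882), and 2 target genes were lower without Mdr2-KO/IL6-KO array 1.

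The steps after the hydroxylase run from alcohol dehydrogenases to peroxisomal beta-oxidation. Of 15 genes measured for them, 4 fell and 1 rose in Mdr2-KO, against 12.1% and 8.89% of all genes, with a median of -0.22 against -0.07. In Mdr2-KO/IL6-KO 4 fell, against 5.33% of all genes, and 0 rose, with a median of -0.05 against -0.02. Abcd2, a peroxisomal importer of fatty acyl-CoA, fell by 1.03 in Mdr2-KO (SE 0.18, limma adjusted p = 0.00153) and by 0.86 in Mdr2-KO/IL6-KO (SE 0.18, limma adjusted p = 0.00456). Acot8, a peroxisomal thioesterase, fell by 0.43 in Mdr2-KO (adjusted p = 0.00557). Scp2, a peroxisomal thiolase and sterol carrier, rose by 0.59 in Mdr2-KO (adjusted p = 0.012), though not without wild-type array 1 (0.0517) or 3 (0.0659). In Mdr2-KO 2 genes fell without wild-type array 1 or 3 or Mdr2-KO array 1, and in Mdr2-KO/IL6-KO 2 fell without wild-type array 1 or 3. Of the 3 measured electron donors of P450 enzymes, 1 fell in each comparison: Cyb5r3 by 0.27 in Mdr2-KO (adjusted p = 0.0409) and Cyb5b by 0.36 in Mdr2-KO/IL6-KO (adjusted p = 0.0359). The first call ended without wild-type array 2 or 3, Mdr2-KO arrays 1, 3, 4 or 5 or Mdr2-KO/IL6-KO arrays 3 or 5 (adjusted p between 0.05 and 0.23). The second ended without wild-type arrays 1 or 3 or Mdr2-KO/IL6-KO arrays 1 or 6 (between 0.0523 and 0.176). Between the knockouts, none of the 15 genes and none of the 3 donors passed in limma (4 and 1 had an unadjusted p under 0.05), although 1 of the 15 passed without Mdr2-KO/IL6-KO array 1, lower, or array 2, higher.

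Of 10 other Cyp4 genes measured, 1 rose and 1 fell in Mdr2-KO, where 8.89% of all genes were higher and 12.1% lower, with a median of -0.15 against -0.07. In Mdr2-KO/IL6-KO 1 rose and 2 fell, where 6.96% and 5.33% of all genes did, with a median of -0.16 against -0.02. The gene counted as lower in Mdr2-KO, and 1 of those in Mdr2-KO/IL6-KO, is Cyp4f37, which lay under the background in all 14 arrays, so no size is given for it and its calls show no measured fall. Cyp4f18, a leukotriene hydroxylase of neutrophils, rose by 0.48 in Mdr2-KO (limma adjusted p = 0.0428) and by 0.54 in Mdr2-KO/IL6-KO (adjusted p = 0.0319). Cyp4f14, the main leukotriene hydroxylase of mouse liver, fell by 0.65 in Mdr2-KO/IL6-KO (adjusted p = 0.0261). These 3 calls depended on single arrays. In Mdr2-KO, that of Cyp4f18 ended without any 1 wild-type array, Mdr2-KO arrays 1, 4 or 5 or Mdr2-KO/IL6-KO array 6. In Mdr2-KO/IL6-KO, that of Cyp4f18 ended without any 1 wild-type array, and that of Cyp4f14 without wild-type arrays 1 or 3 or Mdr2-KO/IL6-KO array 2. The adjusted p of these calls after such a removal lay between 0.0503 and 0.131. None of the 10 passed between the knockouts in limma, with 1 at an unadjusted p under 0.05.

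In the RefSeq annotation of GRCm38.p6 the members lie on chromosome 4, in the order Cyp4a12a, Cyp4a12b, Cyp4a14, Cyp4a10, Cyp4a31. No other measured gene lies between them, and genes without a value of their own here were left out. The nearest measured named genes are Cmpk1, Stil, Tal1, Pdzk1ip1 and Cyp4x1 on one side and Cyp4b1, Efcab14, Tex38, Atpaf1 and Mob3c on the other. Of these 10 neighbours only Atpaf1, an assembly factor of ATP synthase, passed against wild type, with a fall of 0.36 in Mdr2-KO (SE 0.08, limma adjusted p = 0.00837). Cyp4b1, the nearest measured named gene on its side, differed by -0.40 (SE 0.16, adjusted p = 0.0792). Between the knockouts Efcab14 passed, lower by -0.22 (adjusted p = 0.0397). The rises of the Cyp4a12 pair and the falls of Cyp4a10 and Cyp4a31 thus lay within a run of measured genes. The measured named genes on its flanks showed no change of like size.

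Because Cyp4a12a and Cyp4a12b are male-predominant, other genes that differ by sex in mouse liver were set beside them. These lists were made with earlier results known and are no independent support. Female-biased genes were lower almost throughout: of 11 measured, 10 fell and 0 rose in each knockout. Of all genes, 12.1% were lower and 8.89% higher in Mdr2-KO, and 5.33% lower and 6.96% higher in Mdr2-KO/IL6-KO. The list medians were -2.55 for Mdr2-KO and -2.86 for Mdr2-KO/IL6-KO, against -0.07 and -0.02 over all genes. Among the falls, those of Cyp2b9, Cyp2b13 and Cux2 depended on single arrays. In Mdr2-KO/IL6-KO all of these ended without wild-type array 1 or 3 (limma adjusted p between 0.0583 and 0.119). In Mdr2-KO, Cyp2b9 and Cux2 ended without wild-type array 1 and Cyp2b13 without array 2. Cyp2b9 and Cyp2b13 ended there without array 3 (limma adjusted p between 0.0537 and 0.0901 for these removals). Cyp17a1, a steroid hydroxylase, read 11.58, 10.43 and 11.48 in wild type, 8.23, 6.95, 9.54, 6.34 and 5.71 in Mdr2-KO, and 6.26 to 7.25 in Mdr2-KO/IL6-KO. It fell by 3.81 (SE 0.61, limma adjusted p = 0.000813) and 4.58 (SE 0.59, adjusted p = 0.000174). Sult3a1, a sulfotransferase, read 9.45, 6.50 and 9.85 in wild type. It lay under the background in all 6 Mdr2-KO/IL6-KO arrays, at least 8.63-fold lower (adjusted p = 0.000374), and in 4 of 5 Mdr2-KO arrays, with 7.06 in array 3. Array 3 was thus the Mdr2-KO array nearest to wild type for Sult3a1 and Cyp17a1, while for Cyp4a10, Cyp4a14 and Cyp4a31 it was the farthest.

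Male-biased genes other than Cyp4a12 went both ways. Of 15 measured, 5 rose and 3 fell in Mdr2-KO, where 8.89% of all genes were higher and 12.1% lower. In Mdr2-KO/IL6-KO 5 rose and 6 fell, where 6.96% of all genes were higher and 5.33% lower. The list medians were 0.05 and -0.27, against -0.07 and -0.02 over all genes. Elovl3 and Mup21, counted among the 6 falls in Mdr2-KO/IL6-KO, lay under the background in all 6 of those arrays. Each did so in 1 of 3 wild-type arrays as well, so no size is given for them. Susd4, another of the 6, lay under it in 3 of the Mdr2-KO/IL6-KO arrays and in all 5 Mdr2-KO arrays. Cyp2d9, a steroid hydroxylase, read 7.32, 7.61 and 7.33 in wild type, 9.55, 9.35, 9.51, 9.12 and 9.44 in Mdr2-KO, and 9.16 to 9.67 in Mdr2-KO/IL6-KO. Unlike Cyp4a12a, it showed little spread among Mdr2-KO arrays. It rose by 1.97 (SE 0.12, limma adjusted p = 1.41e-07) and 2.02 (SE 0.12, adjusted p = 6.19e-08). The complement protein C6 rose by 1.35 (adjusted p = 0.000283) and 1.06 (adjusted p = 0.0015). Mup3, a major urinary protein whose family members can share probe signal, fell by 2.16 in Mdr2-KO/IL6-KO (SE 0.53, limma adjusted p = 0.0146), but not without wild-type array 1 (0.0546) or 3 (0.0726). In Mdr2-KO/IL6-KO 2 male-biased genes fell without wild-type array 1 or 3. Between the knockouts 5 male-biased genes were lower in Mdr2-KO/IL6-KO and 0 higher, where 3.72% of all genes were lower and 5.04% higher. The Cyp4a12 pair did not pass there. Of these 5, Slco1a1 lay under the background in all 14 arrays, and Mup21 in 4 of 5 Mdr2-KO and all 6 Mdr2-KO/IL6-KO arrays, so neither is a measured difference. The count of 5 was 3 without wild-type array 1, Mdr2-KO array 4 or Mdr2-KO/IL6-KO array 2, 4 or 5, 2 without Mdr2-KO/IL6-KO array 1 or 6, and 1 without Mdr2-KO array 1, 2 or 3. Egfr, the epidermal growth factor receptor, was lower by -0.91 with all 14 arrays (SE 0.20, adjusted p = 0.0152), and this call stayed under every removal.

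**Figure D4:**
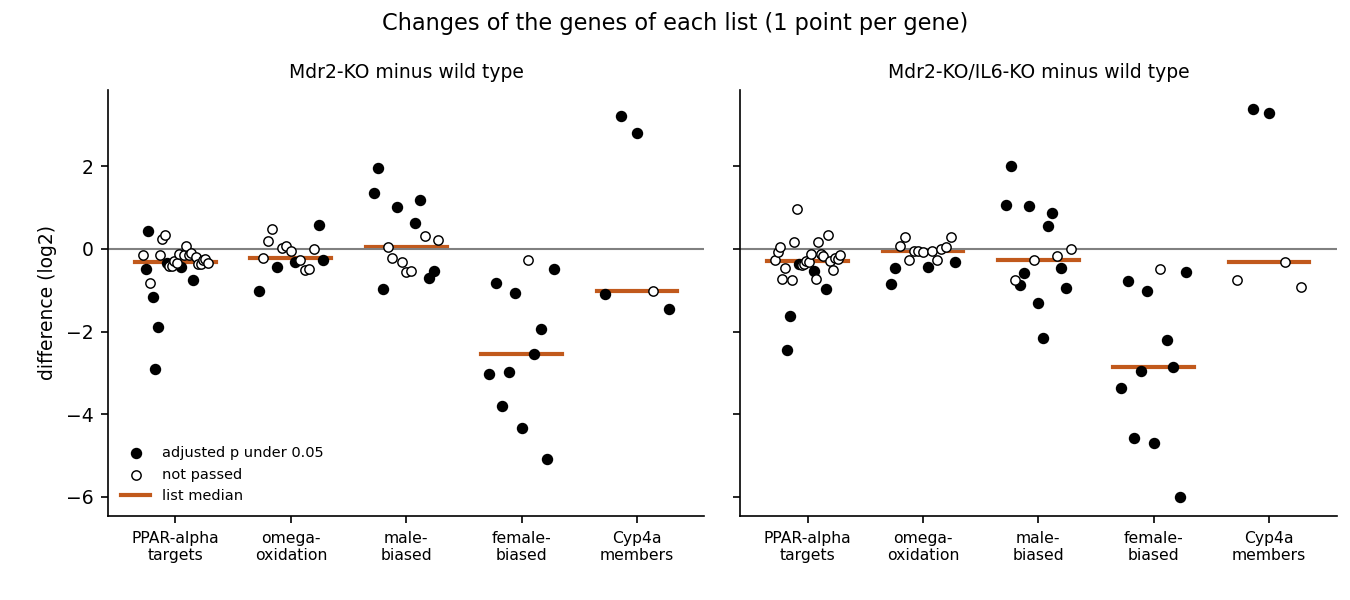
Log2 differences of each knockout from wild type for PPAR-alpha target genes, genes of the steps after omega-hydroxylation, male-biased and female-biased liver genes and the Cyp4a members, with 1 point per gene, filled where the adjusted p was under 0.05, and a line for the list median. The female-biased genes lie lowest, with medians of -2.55 and -2.86, and the Cyp4a12 pair lies above every gene of the other lists in both plots.

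Regulators of sex-biased liver expression changed in part. Of 13 measured, 3 fell and 1 rose in Mdr2-KO, where 12.1% of all genes were lower and 8.89% higher. In Mdr2-KO/IL6-KO 5 fell and 0 rose, where 5.33% of all genes were lower and 6.96% higher. The list medians were -0.17 and -0.09, against -0.07 and -0.02 over all genes. Ghr, the growth hormone receptor, fell by 0.49 in each (SE 0.08, limma adjusted p = 0.0011 and 0.00098). Nr1i3, the nuclear receptor CAR, fell by 0.93 in Mdr2-KO (adjusted p = 0.00583) and by 0.86 in Mdr2-KO/IL6-KO (adjusted p = 0.00976, 0.0691 without wild-type array 3). Esr1, the estrogen receptor, fell by 0.60 in Mdr2-KO (adjusted p = 0.0125, 0.0534 without wild-type array 3) and by 0.98 in Mdr2-KO/IL6-KO (adjusted p = 0.000578). The rise was that of Bcl6, a repressor of female-biased genes, by 0.93 in Mdr2-KO (adjusted p = 0.0149), lost without wild-type array 1 (0.0621) or 3 (0.0597). In Mdr2-KO/IL6-KO 2 genes fell without wild-type array 3. Between the knockouts 1 regulator, Bcl6, was lower in Mdr2-KO/IL6-KO and 0 were higher, where 3.72% and 5.04% of all genes were. That call ended without Mdr2-KO array 1, 2 or 4 or any 1 Mdr2-KO/IL6-KO array (limma adjusted p between 0.0508 and 0.0960).

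Some markers of other liver cells were higher in the knockouts. The share of all genes that were higher against wild type was 8.89% for Mdr2-KO and 6.96% for Mdr2-KO/IL6-KO. Of 8 measured cholangiocyte markers, 4 rose in the Mdr2-KO arrays and 6 in the Mdr2-KO/IL6-KO arrays. Their mean per array was 6.31 to 6.66 in wild type, 6.96 to 7.79 in Mdr2-KO and 7.11 to 7.90 in Mdr2-KO/IL6-KO. Of 8 stellate and fibroblast markers, 2 rose in the Mdr2-KO arrays and 3 in the Mdr2-KO/IL6-KO arrays, with means per array of 7.85 to 7.95 in wild type, 7.83 to 8.64 and 8.08 to 8.61. The first of these counts was 1 without any 1 wild-type array or Mdr2-KO array 1, 2, 4 or 5, and 4 without Mdr2-KO array 3. The second was 1 without wild-type array 1. Of 8 macrophage markers, 2 rose in each comparison, with means of 8.69 to 8.97, 8.80 to 9.17 and 8.79 to 9.25 that overlap between all groups. In Mdr2-KO that count was 1 without wild-type array 1 or 2, and in Mdr2-KO/IL6-KO it was 1 without wild-type array 1 or 3. Some macrophage markers had a lower mean in Mdr2-KO than in wild type, though 0 passed as lower. The median difference of the macrophage list was 0.04 for Mdr2-KO and 0.19 for Mdr2-KO/IL6-KO, against -0.07 and -0.02 over all genes. The part of cell composition in the Cyp4a differences was not tested.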

How the data were processed

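Total RNA of 14 liver samples was hybridised as biotinylated cRNA to Affymetrix mouse gene arrays. The deposited values are log2 signals made by the authors with RMA and Partek, per the submitters' processing notes. RMA corrects background, normalizes quantiles between arrays and summarises probes, so a difference shared by all genes would be removed. For tool versions and genome build, nothing is given in the sources used here.

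Of 35557 probes, 21789 were annotated to 1 gene (21698 matched by gene ID), 1621 to several and 12147 to none. Genes with more than 1 probe (999) took the probe of highest mean, leaving 19938. Groups were compared with limma 3.58.1 (R 4.3.3), tested on simulated data. Tables were made with Python 3.11.15. With 1 value per gene and array, the number of arrays limits the precision. The members, gene lists and background were chosen with earlier results of these data known. Named genes were the members, Abcb4, Il6, up to 4 genes per list and comparison with the largest change past the threshold, the 5 most alike genes per member and the chromosomal neighbours (the text shows a part). Acadvl, S100a8, Elane, Cxcl14, the other genes that ran opposite to a member and the sex-linked genes were added after their values were seen. Alternatives were quantile normalization, median centring, the brightest 13292 genes, all probes, the mean of probes, trend and robust moderation, array weights, only 2 groups, and each array left out.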

Additional observations from a re-analysis of the deposited data

Results flagged for a closer look

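A value was marked here when the gap between the lowest or highest array of a group and its nearest neighbour exceeded Dixon's 95% limit, which chance passes in about 1 of 20 groups. Of 40 groups of knockout arrays, over the genes whose values were given array by array, 13 passed. These tests share arrays, and several of the genes were chosen for running with or against Cyp4a10 or Cyp4a14 in them: S100a8, Elane and Cxcl14 give 6 of the 13, and Acot2 and Aldh3a2 give 2. The count is therefore not to be read against the chance rate. The causes were not tested.

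In Mdr2-KO array 3, Cyp4a10 (9.22, gap over range 0.781), Cyp4a14 (7.42, 0.747) and the probe shared by Cyp4a10, Cyp4a31 and Cyp4a32 (9.21, 0.802) were low, against a limit of 0.71. In the same array Acot2 (7.35) and Aldh3a2 (9.85), both fatty acid genes, were low, and Sult3a1 (7.06), Cxcl14 (9.62), S100a8 (10.12) and Elane (9.21) were high. Cyp4a31 and the Cyp4a12 pair did not pass the limit in this array.

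In Mdr2-KO/IL6-KO array 2, Cyp17a1 (7.25), the chemokine gene Cxcl14 (8.34), S100a8 (8.99) and Elane (7.11) were high, against a limit of 0.625. No Cyp4a member passed the limit there, though 3 of the 5 had their lowest value of the group in this array.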

How the results depend on the processing

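Each member was refitted under 23 alternatives, 1 of them (Mdr2-KO array 3 left out together with Mdr2-KO/IL6-KO array 2) chosen after the data were seen. Of the refitted member differences, 321 kept their direction and their side of the threshold, 13 lost a call, 6 gained one and 5 turned in sign. All 13 losses were of Cyp4a10 in Mdr2-KO, where the adjusted p ran from 0.00422 to 0.123. Besides single arrays it was lost with median centring (0.0509), all probes (0.0655), trend and robust moderation (0.0833) and only 2 groups (0.0685). The number of members called in Mdr2-KO/IL6-KO against wild type, 2, became 4 without Mdr2-KO replicate 3 and 4 without that array and Mdr2-KO/IL6-KO array 2. With single arrays left out it ranged from 2 to 4, that in Mdr2-KO from 3 to 4, and that between the knockouts stayed at 0. Cyp4a31 in Mdr2-KO/IL6-KO also passed with array weights (0.0439) and only 2 groups (0.0407).

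Between the knockouts the sign turned, never with a call, for Cyp4a10 (-0.024), Cyp4a12a (-0.04) and Cyp4a14 (-0.0072) without Mdr2-KO replicate 3, for Cyp4a12a (-0.22) without Mdr2-KO replicate 4, and for Cyp4a12a (-0.0095) without both low arrays. With single arrays left out, the highest differences of these genes were 0.50 (Cyp4a10), 0.66 (Cyp4a12a) and 0.97 (Cyp4a14). Cyp4a12b ranged there from 0.13 (without Mdr2-KO array 4) to 0.94 (without Mdr2-KO array 2, adjusted p = 0.0525), and Cyp4a31 from 0.22 (without Mdr2-KO array 3) to 0.69 (without Mdr2-KO/IL6-KO array 2). Cyp4a14 in Mdr2-KO/IL6-KO against wild type ranged from -0.50 (without Mdr2-KO/IL6-KO array 1) to -0.14 (without array 2). The alternative of other single-gene probes gave no value, as each member has 1. No paired analysis was possible, because the knockout labels carry identifiers of unstated meaning and name no pairing between groups. No scaling moved the median of all genes by over 0.1. The wild-type signal of the Cyp4a12 pair, under the background, limits the size of their rises, and 3 wild-type arrays limit every comparison with them.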

Other observations

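Genes whose signal ran opposite to a Cyp4a gene were looked up after the likeness values were seen, and are given as a description over 14 arrays that share their groups. For Cyp4a10 the most negative correlations were with Cxcl14, a chemokine (r = -0.950, and -0.927 with group means removed), and S100a8 (-0.927 and -0.913). Pofut2 (-0.914), Myo18a (-0.911) and Sbno2 (-0.907) came next. Cxcl14 read 6.80, 6.59 and 6.93 in wild type. In Mdr2-KO it read 9.62 in array 3 and 7.60 to 7.81 in the other arrays, and in Mdr2-KO/IL6-KO 8.34 in array 2 and 7.38 to 7.70 in the others. For Cyp4a14 the most negative were Cyb561 (-0.912 and -0.914), Elane (-0.908 and -0.927) and the TNF receptor Tnfrsf1a (-0.902 and -0.901). Bbs9 (-0.897 and -0.888) and the IL-17 receptor Il17ra (-0.893 and -0.906) came next. For Cyp4a31 they were Pofut2 (-0.934), Cxcl14 (-0.930), Nisch (-0.927), Hpn (-0.915) and Myo18a (-0.912). For Cyp4a12a they were Sec63 (-0.934), Rpe (-0.916), Klhl7 (-0.911), Tnik (-0.909) and Perp (-0.908). For Cyp4a12b they were Rpe (-0.930), Klhl7 (-0.929) and Slc22a26, a female-biased transporter (-0.928, and -0.759 with group means removed). Sec63 (-0.928) and Apom (-0.917) came next for Cyp4a12b.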
